A study of Mus musculus with 6 samples.

Results

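The B1, B2 and BC1 families are short interspersed elements (SINEs) of the mouse, and their reads were followed in testis RNA of wild-type and Spocd1 ΔSPIN1 mice. Members were found by name in the repeat count table of the series. All 10 names of the list were found among 363 repeat families. Of these, 5 are B1 entries (B1, B1_Mm, B1_Mus1, B1_Mus2 and B1F), 4 are B2 entries (B2, B2_Mm1a, B2_Mm1t and B2_Mm2) and 1 is BC1_Mm. Another entry, BC1_Cp, is not among the members and had 0 reads in every library. After the filter on low counts 9 of the 10 were tested, because B1F had at most 2 reads in a library.

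SINEs are short retroelements that code for no protein and are copied into new places by the machinery of LINE1 elements. B1 descends from the 7SL RNA of the signal recognition particle, whereas B2 and BC1 descend from tRNA genes. Single copies can be transcribed by RNA polymerase III, and many others lie within genes and are carried along in RNA polymerase II transcripts, so a count for a family does not tell which polymerase made the RNA. BC1 differs in that it also has a gene of its own, Bc1, whose RNA is known from neurons and male germ cells.

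The series measured total RNA, depleted of ribosomal RNA, from testes taken on postnatal day 20, with one testis per library. The control group was 3 wild-type mice. The mutant group was 3 mice homozygous for Spocd1 ΔSPIN1, an edited allele from 1 founder. In this allele, alanine substitutions in a strand of a predicted β-hairpin of SPOCD1 disrupt its binding to SPIN1. All 6 mice were of a mixed B6CBAF1/Crl and C57BL/6N background. SPOCD1 is needed for DNA methylation of young transposons guided by piRNAs, and the comparison asks what becomes of RNA from repeats when SPOCD1 cannot bind SPIN1. No gene is listed in the table, so tissue, cell types and genotype were not checked against marker genes. Cell makeup of the testes was not measured, and in bulk RNA fewer cells of a type and less RNA per cell cannot be told apart.

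Reads assigned to repeat families summed to 416517, 369598 and 499166 in wild-type replicates 1, 2 and 3, and to 842018, 1013224 and 918487 in Spocd1 ΔSPIN1 replicates 1, 2 and 3. Mutant totals were all above the wild-type totals. LINE1 families, taken as the 51 names that begin with L1 or Lx, had 193297 ± 38675 reads in wild type and 614394 ± 94936 in the mutant (SD, n = 3). The 10 SINE families together had 83832, 75431 and 91094 reads in wild type and 103592, 103046 and 90365 in the mutant. Mutant replicates 1 and 2 were above every wild-type library in this sum, and mutant replicate 3 fell within the wild-type values. The ratio of mutant to wild-type means was 1.19 for the SINE sum, 3.18 for LINE1 and 1.39 for the families outside both. The last group includes MMERVK10C, an endogenous retroviral family whose fitted level in the mutant was 6.37 times that in wild type. Its ratio without MMERVK10C was not calculated.

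**Figure D1:**
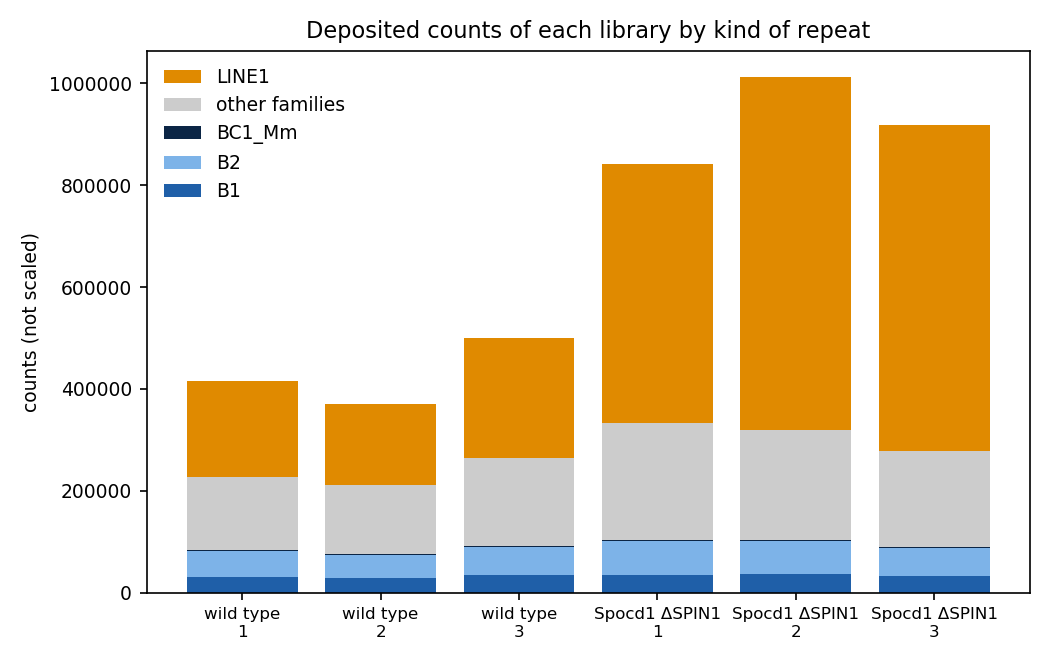
Deposited counts of each library, not scaled, stacked as B1, B2, BC1_Mm, other families and LINE1, for 3 wild-type and 3 Spocd1 ΔSPIN1 libraries. LINE1 was 193297 ± 38675 reads in wild type and 614394 ± 94936 in the mutant, while the SINE sum was between 75431 and 103592 in all 6 libraries.

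Mutant replicate 1 stood apart from the other mutant libraries. Over all families the chi-square per degree of freedom was 413 between mutant replicates 1 and 2 and 352 between replicates 1 and 3, against 14.4 between replicates 2 and 3 and 10.3 to 14.5 between wild-type libraries. Its L1MdA_I level was 29929 counts-per-million (CPM), against 122947 and 125796 in the other two mutant libraries. Log2 fold changes of the B1 and B2 entries, and their ratio, are also given without this library.

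Levels below are CPM relative to library sizes scaled by TMM, the trimmed mean of M-values, which sets the bulk of the families level between libraries. TMM factors were 1.37 to 1.46 in wild type and 0.67 to 0.74 in the mutant. The scale matters for every SINE, since total counts, used without TMM factors, put the median of the log2 fold changes of all 292 families at −1.05, where TMM puts it at −0.039, and shift each of the 9 tested SINEs by about as much. With reads outside LINE1 as library size, a scale chosen after seeing the data, the SINE values lay from −0.31 to 0.059. On that scale 7 of the 9 changed sign, while the median of all 292 families was −0.34. That library size includes the reads of MMERVK10C. Directions between genotypes are therefore relative to the TMM scale, and the SINE values by total counts are given beside them.

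Per kilobase of the listed family length, SINEs were the most abundant entries of the table. By mean CPM over the 6 libraries, not divided by length, B2_Mm2 was highest of them at rank 8 of 292. B1 was then at rank 44 and BC1_Mm at rank 63, the lowest of the 9. Per kilobase, ranks 1 to 8 of 292 were held by the same SINEs, in the same order, in both genotypes. B2_Mm2 had rank 1 at 143530 ± 9958 CPM per kilobase in wild type and 156826 ± 11141 in the mutant (SD, n = 3). B2_Mm1a had rank 2 at 124154 ± 18050 and 148994 ± 20005 CPM per kilobase. B1_Mus1 followed at rank 3 with 121601 ± 8664 and 125849 ± 5647 CPM per kilobase. Then came B1_Mm, B2_Mm1t, B1_Mus2, B2 and B1, in that order, down to 51951 ± 3736 CPM per kilobase for B1 in wild type. BC1_Mm was lowest of the 9 at 15631 ± 2516 CPM per kilobase in wild type and 19970 ± 1887 in the mutant, at rank 11 in wild type and rank 12 in the mutant. The wild-type means of B2_Mm1a and B1_Mus1 differed by less than the SD of B2_Mm1a, and those of B2_Mm1t and B1_Mus2 by less than the SD of B2_Mm1t. In the mutant the same held for B2_Mm2 with B2_Mm1a and for B1_Mm with B2_Mm1t. L1MdTf_I, a young and long LINE1 family, was at 1690 ± 44.2 CPM per kilobase in wild type, rank 47, and at 20067 ± 3864 in the mutant, rank 11, next to BC1_Mm.

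**Figure D2:**
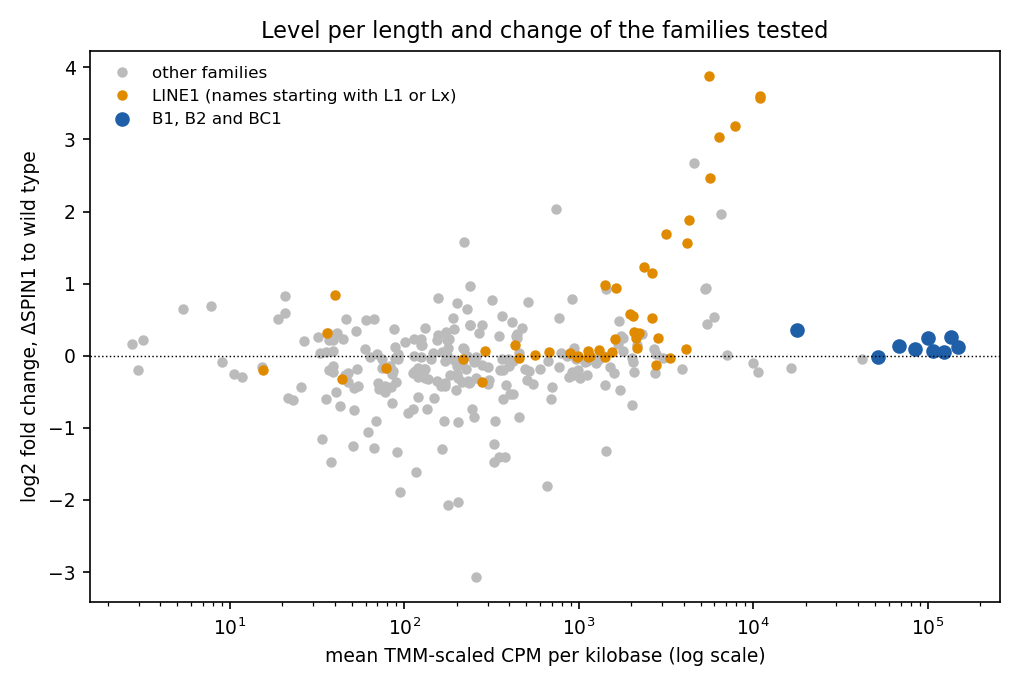
Mean TMM-scaled CPM per kilobase over 6 libraries (log axis) against log2 fold change of Spocd1 ΔSPIN1 to wild type for the 292 families tested, with the 9 SINEs in blue and LINE1 in orange. The SINEs lie at the right, with log2 fold changes from −0.018 to 0.35 on the TMM scale, which all lie between −1.03 and −0.66 by total counts.

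The B1 entries are related families of the 7SL-derived kind, with listed lengths of 135 to 151 bases. B1_Mus1 was the one with most reads, at 18273, 19119 and 16599 CPM in wild type and 19465, 17794 and 18618 CPM in the mutant. Its mutant values lay among and slightly above the wild-type ones, and the groups overlapped. The log2 fold change of B1_Mus1 was 0.050 (95% interval −0.17 to 0.27), 0.0060 without mutant replicate 1, and −0.96 by total counts.

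B1_Mm was measured at 15359, 16215 and 14579 CPM in wild type and 16559, 15441 and 16122 CPM in the mutant. Again the groups overlapped, with mutant replicate 1 the highest library and wild-type replicate 3 the lowest. B1_Mm had a log2 fold change of 0.060 (95% interval −0.14 to 0.26), 0.026 without mutant replicate 1, and −0.95 by total counts. B1_Mus2 was at 11961, 12745 and 11309 CPM in wild type and 13342, 12206 and 12785 CPM in the mutant. Wild-type replicate 2 lay between the mutant libraries, so these groups overlapped too. Its log2 fold change was 0.090 (95% interval −0.11 to 0.29), 0.047 without mutant replicate 1, and −0.92 by total counts.

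The entry named B1 alone was the B1 family with fewest reads after B1F, at 6762, 7594 and 6684 CPM in wild type and 7278, 6558 and 6944 CPM in the mutant. Its highest library was wild-type replicate 2 and its lowest was mutant replicate 2, and the groups overlapped. The log2 fold change of B1 was −0.018 (95% interval −0.22 to 0.18), −0.065 without mutant replicate 1, and −1.03 by total counts. With DESeq2 size factors it changed sign, at 0.016. B1F, another B1 subfamily, had 1, 2 and 2 reads in wild type and 0, 0 and 1 in the mutant. These counts are too few for a fold change, and B1F was not tested.

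The B2 entries, of the tRNA-derived kind, are listed with lengths of 193 to 209 bases. B2_Mm2 had the highest mean of the members in both genotypes, at 29267, 28944 and 25754 CPM in wild type and 33077, 29116 and 29550 CPM in the mutant. Mutant replicate 1 was the highest library and the only one in which B2_Mm1a was above B2_Mm2. Wild-type replicate 3 was the lowest, and mutant replicate 2 lay under wild-type replicate 1. B2_Mm2 had a log2 fold change of 0.13 (95% interval −0.12 to 0.37), 0.057 without mutant replicate 1, and −0.88 by total counts.

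B2_Mm1a was at 23882, 27485 and 20519 CPM in wild type and 33214, 26461 and 26593 CPM in the mutant. Mutant replicate 1 was above every other library, whereas mutant replicates 2 and 3 lay under wild-type replicate 2. The means were 23962 ± 3484 CPM in wild type and 28756 ± 3861 in the mutant (SD, n = 3), a difference of about the spread within either group. The log2 fold change of B2_Mm1a was 0.26 (95% interval −0.076 to 0.60), 0.14 without mutant replicate 1, and −0.74 by total counts.

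B2_Mm1t showed the same order of libraries, at 17868, 19695 and 15496 CPM in wild type and 23746, 19420 and 19477 CPM in the mutant. Wild-type replicate 2 exceeded mutant replicates 2 and 3, so the groups overlapped. Its log2 fold change was 0.24 (95% interval −0.061 to 0.54), 0.13 without mutant replicate 1, and −0.77 by total counts. The entry named B2 alone was at 14146, 14973 and 12100 CPM in wild type and 16429, 14379 and 14315 CPM in the mutant. Wild-type replicate 2 again exceeded the mutant replicates 2 and 3. B2 had a log2 fold change of 0.13 (95% interval −0.13 to 0.39), 0.053 without mutant replicate 1, and −0.88 by total counts.

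**Figure D3:**
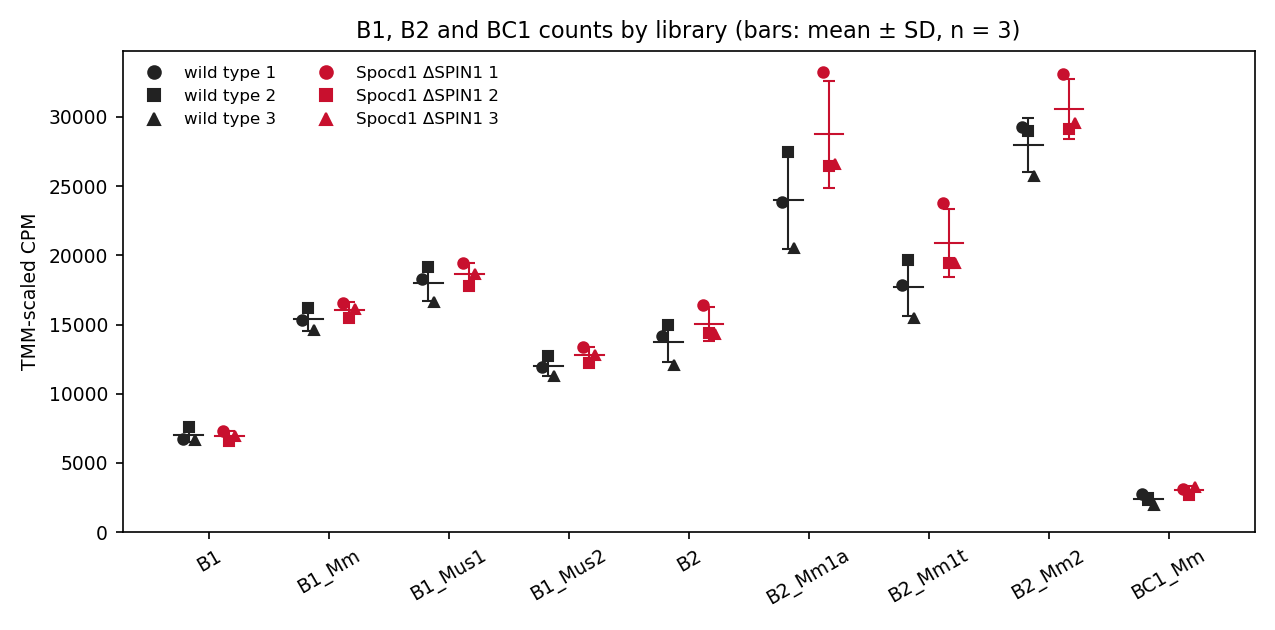
TMM-scaled CPM of the 9 tested SINE families in each library, with wild type in black, Spocd1 ΔSPIN1 in red, a symbol for each replicate number, and bars for mean ± SD (n = 3). The genotypes overlap in all 9 families, and mutant replicate 1 is the highest library in each B2 family, at 33214 CPM for B2_Mm1a.

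BC1_Mm is the entry closest to a single gene. Bc1 (ENSMUSG00000115783.1) is annotated by GENCODE as a lincRNA of 1 exon on the plus strand at chr7:144914470-144914637 of GRCm38, the build also called mm10. Its RNA of 168 bases is shown because BC1_Mm, with a listed length of 152 bases, is named for it. RefSeq lists Bc1 with a shorter length, 154 bases. Capitals mark the longest run of A, of 23 bases at positions 77 to 99 from the 5′ end, which parts the tRNA-derived head from the rest of the RNA.
Bc1: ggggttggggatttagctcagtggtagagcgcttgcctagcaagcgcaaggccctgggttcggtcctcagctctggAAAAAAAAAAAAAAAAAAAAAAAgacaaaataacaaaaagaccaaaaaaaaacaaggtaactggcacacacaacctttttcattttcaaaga
In the GENCODE sequence the head before the A run has 76 bases and the part after it has 69. Whether reads of BC1_Mm came from the Bc1 gene or from related copies elsewhere was not tested, since the table sums over places in the genome.

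Unscaled reads of BC1_Mm were 1627, 1234 and 1432 in wild type and 1939, 1944 and 2005 in the mutant. Every mutant library had more of them than every wild-type library, but mutant libraries also had more reads summed over all repeat families. Of these, LINE1 had 193297 ± 38675 reads in wild type and 614394 ± 94936 in the mutant (SD, n = 3). On the TMM scale BC1_Mm was at 2722, 2441 and 1965 CPM in wild type and 3111, 2718 and 3277 CPM in the mutant. Mutant replicate 2 then lay just under wild-type replicate 1, so the groups overlapped. The means were 2376 ± 382 CPM in wild type and 3035 ± 287 in the mutant (SD, n = 3). BC1_Mm had the largest log2 fold change of the 9 SINEs, 0.35 (95% interval 0.059 to 0.65), or 1.28-fold, with a standard error of 0.13. By total counts the sign was reversed, at −0.66. The unadjusted p in edgeR was 0.0246, and with Bonferroni adjustment over 292 families the edgeR quasi-likelihood test gave an adjusted p of 1.

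With the quasi-likelihood test of edgeR and Bonferroni adjustment, 0 of the 9 tested SINEs passed the threshold of 0.05, in a table where 24 of 292 families (8.22%) did, 16 higher and 8 lower in the mutant. At an unadjusted p under 0.05 the count was 1 of 9, BC1_Mm, against 124 of 292 families (42.5%). DESeq2's Wald test with the same adjustment called 0 of the 9 SINEs and 47 families, and its unadjusted p was 0.0190 for BC1_Mm. In 61 of 292 families (20.9%) all mutant TMM-scaled values were above all wild-type values, and 0 of the 9 SINEs were among them. A p above the threshold does not show that levels were equal, and the 95% intervals of the 9 SINEs reach from −0.22 at the lowest to 0.65 at the highest.

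The calls turned on the scale. By total counts 6 of the 9 SINEs passed the threshold, all lower in the mutant, against 168 of 292 families (57.5%) that were called lower and 172 called in all. These 6 were B1, B1_Mm, B1_Mus1, B1_Mus2, B2 and B2_Mm2. By total counts, adjusted p-values in the edgeR quasi-likelihood test with Bonferroni adjustment ran from 0.00125 for B1 to 0.373 for B2_Mm1a.

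As a group the 9 tested SINEs had a median log2 fold change of 0.13 on the TMM scale, with 8 above 0, against −0.039 and 127 above 0 over the 292 families. By total counts the SINE median was −0.88 with 0 of 9 above 0, against −1.05 over all families, and with reads outside LINE1 as library size it was −0.17 with 1 above 0, against −0.34. Without mutant replicate 1 the SINE median was 0.053 on the TMM scale, with 8 above 0. The median of the 297 families then tested was −0.066, with 131 above 0. For the 4 tested B1 entries the median was 0.055, 0.016 without mutant replicate 1, and −0.96 by total counts. The 4 B2 entries ranged from 0.13 to 0.26 with a median of 0.19, which was 0.092 without mutant replicate 1 and −0.82 by total counts. The 46 tested LINE1 families also had a median of 0.19 (−0.83 by total counts), but reached up to 3.88 and included 10 families called higher. L1MdTf_I was among the 10, at 12504 ± 327 CPM in wild type and 148459 ± 28582 in the mutant (SD, n = 3). Its log2 fold change was 3.57 (2.56 by total counts), with an adjusted p of 1.54e-05 in the edgeR quasi-likelihood test with Bonferroni adjustment. L1MdGf_I, another young LINE1 family, was called too, with a log2 fold change of 1.23 (0.21 by total counts, where it was not called). L1MdA_I had a log2 fold change of 3.18 (2.14 by total counts) but did not pass, with an adjusted p of 0.0693 in the edgeR quasi-likelihood test with Bonferroni adjustment.

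**Figure D4:**
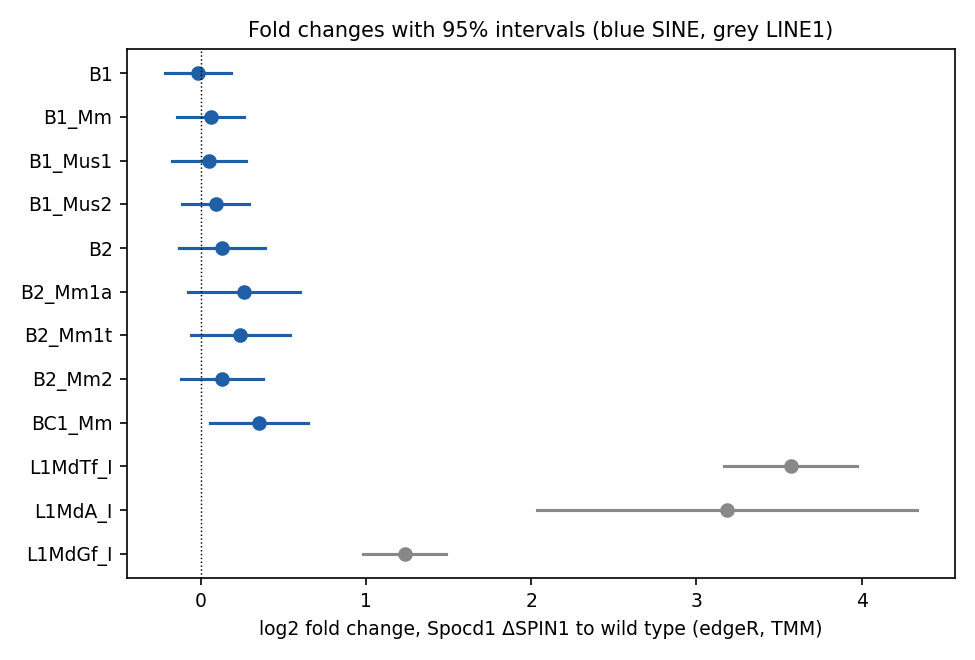
Log2 fold change of Spocd1 ΔSPIN1 to wild type on the TMM scale with its 95% interval for the 9 tested SINE families (blue) and L1MdTf_I, L1MdA_I and L1MdGf_I (grey). SINE values range from −0.018 to 0.35, but lie between −1.03 and −0.66 by total counts and between −0.31 and 0.059 with reads outside LINE1 as library size, while L1MdTf_I is at 3.57 on the TMM scale.

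Ratios within a library need no scaling between libraries. The log2 ratio of summed B1 to summed B2 reads was −0.70, −0.71 and −0.59 in wild type and −0.91, −0.78 and −0.72 in the mutant. All mutant libraries were below all wild-type libraries, with mutant replicate 3 at −0.72 next to wild-type replicate 2 at −0.71. The means were −0.67 ± 0.069 and −0.81 ± 0.096 (SD, n = 3), a difference of −0.14 that was larger than either SD. An exact two-sided permutation test over libraries gave p = 0.1, the smallest that 3 against 3 allows. Without mutant replicate 1, the library with the lowest ratio, the difference was −0.086.

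The sums behind this ratio were 31759 ± 3865 B1 reads in wild type and 35273 ± 1928 in the mutant, and 50262 ± 3928 B2 reads in wild type and 61766 ± 5959 in the mutant (SD, n = 3). The unscaled mutant mean was thus 1.11 times the wild-type mean for B1 and 1.23 times for B2. Each of the 16 pairs of a tested B1 and a B2 entry had a lower mean log2 ratio of B1 to B2 in the mutant. The groups did not overlap in 3 of the 16, and the pairs share their entries and libraries. Over all 42195 pairs of tested families with a read in every library the groups did not overlap in 50.7%, so that such a separation was common in these libraries. Differences of the 16 pairs were from −0.28, for B1 to B2_Mm1a, to −0.037, for B1_Mus2 to B2_Mm2. Without mutant replicate 1, a step added for the pairs after seeing the data, all 16 were still below 0, from −0.21 for B1 to B2_Mm1a to −0.0091 for B1_Mus2 to B2.

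BC1_Mm was also set beside the sum of B1 and B2. Its log2 ratio to that sum was −5.66, −5.91 and −5.97 in wild type and −5.71, −5.70 and −5.46 in the mutant. Wild-type replicate 1 was above mutant replicates 1 and 2, and the groups overlapped. The difference of 0.22 between means had p = 0.3 in the exact two-sided permutation test, and it was 0.14 without mutant replicate 3, the library with the highest ratio.

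Beside LINE1 the SINE reads held a smaller place in the mutant. The log2 ratio of the SINE sum to the LINE1 sum was −1.17, −1.06 and −1.36 in wild type and −2.30, −2.75 and −2.82 in the mutant. The groups were far apart, and mutant replicate 1 was nearest to wild type. The difference between means was −1.43 (p = 0.1 in the exact two-sided permutation test, the smallest possible). As a share of all repeat reads the SINEs made up 20.1%, 20.4% and 18.2% in wild type and 12.3%, 10.2% and 9.84% in the mutant. The groups did not overlap, and the difference was −8.82 percentage points (p = 0.1 in the exact permutation test). With reads divided by family length before summing, the share was 74.5% in wild type and 69.4% in the mutant, a difference of −5.07 percentage points (p = 0.1 in the exact permutation test).

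With LINE1 left out of the total, the SINE share was 36.8%, 35.5% and 34.4% in wild type and 31.1%, 32.3% and 32.4% in the mutant. Every mutant library was below every wild-type library by this measure as well. The means were 35.6% ± 1.22 and 31.9% ± 0.696 (SD, n = 3), a difference of −3.61 percentage points (p = 0.1 in the exact permutation test). This direction depends on length. With each family's reads divided by its length before summing, the shares were 79.0% in wild type and 79.6% in the mutant. That is a difference of 0.63 percentage points (p = 0.4 in the exact permutation test). The total outside LINE1 also holds MMERVK10C, at 9375 ± 379 CPM in wild type and 59749 ± 20403 in the mutant (SD, n = 3). The SINE share without MMERVK10C was not calculated, so a fall against the remaining families is not shown.

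**Figure D5:**
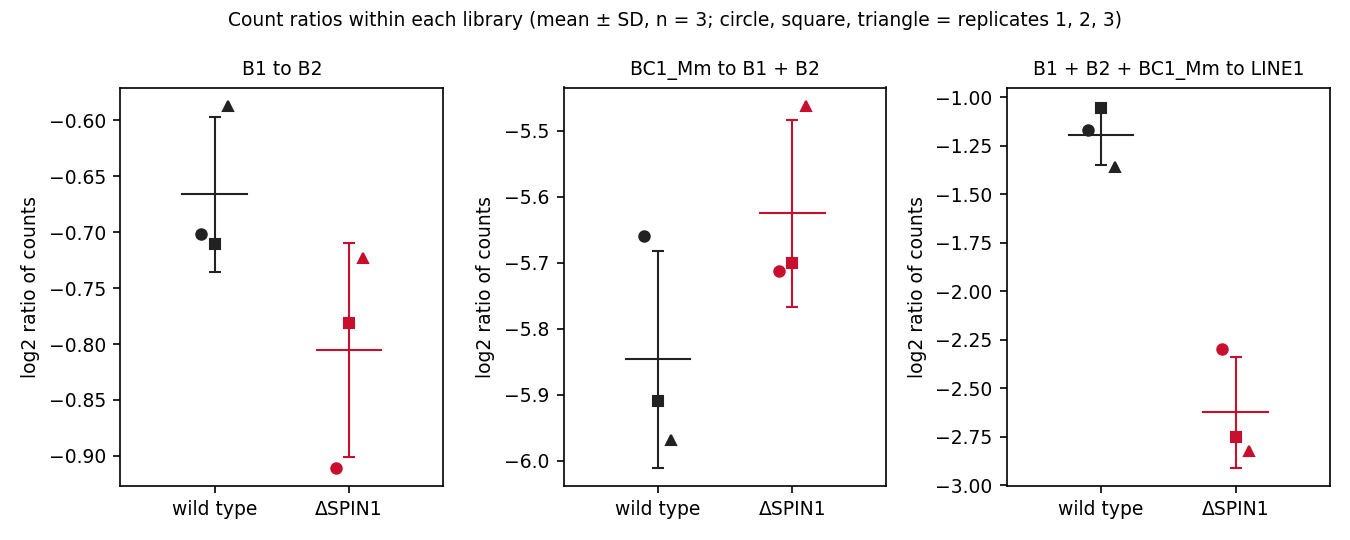
Log2 ratios of counts within each library for B1 to B2, BC1_Mm to B1 and B2, and the SINE sum to LINE1, in 3 wild-type (black) and 3 Spocd1 ΔSPIN1 (red) libraries, with bars for mean ± SD and axes that do not start at 0. Groups are apart for B1 to B2 (−0.67 and −0.81) and for the SINE sum to LINE1 (−1.20 and −2.62), and overlap for BC1_Mm.

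Among themselves the tested B1 entries varied least in proportion. B1_Mm to B1_Mus2 was between 1.24 and 1.29 in all 6 libraries, with an SD of the log2 ratio of 0.020, where counting error alone gives 0.022. B1 to B1_Mus2 was the least steady of the B1 pairs, at 0.54 to 0.60 with an SD of 0.065, where counting error gives 0.027. In 4 of the 6 pairs of B1 entries, both of these included, the genotypes did not overlap, as in 2 of the 6 pairs of B2 entries and 3 of the 8 pairs with BC1_Mm, against 50.7% of all pairs of families. Over the 6 pairs of B1 entries the SD of the log2 ratio was 0.020 to 0.065, over the 6 pairs of B2 entries 0.032 to 0.13, and over the 16 pairs of B1 with B2 0.054 to 0.19. Counting error gives 0.016 to 0.020 for B2 pairs and 0.017 to 0.027 for pairs of B1 with B2. The 8 pairs with BC1_Mm varied most, at 0.17 to 0.26, where counting error gives 0.037 to 0.042. The treatment of reads with matches in more than 1 family is not given in the sources used here, and related entries may share reads.

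The share of each entry within its kind is given as a description, since groups that do not overlap were common in these libraries (50.7% of all pairs of families). B1_Mus2 made up 22.8%, 22.9% and 23.0% of B1 reads in wild type and 23.6%, 23.5% and 23.5% in the mutant. The mutant shares were all above the wild-type shares, by more than their spread. The entry named B1 made up 12.9%, 13.6% and 13.6% in wild type and 12.8%, 12.6% and 12.7% in the mutant. All mutant shares of B1 were below the wild-type ones, narrowly so for wild-type replicate 1. Within B2 reads, B2_Mm1a had 28.0%, 30.2% and 27.8% in wild type and 31.2%, 29.6% and 29.6% in the mutant, and the groups overlapped. B2_Mm2 had 34.4%, 31.8% and 34.9% in wild type and 31.1%, 32.6% and 32.9% in the mutant, with overlap as well. B2_Mm1t had 21.0%, 21.6% and 21.0% in wild type and 22.3%, 21.7% and 21.7% in the mutant, all mutant shares being the higher, narrowly so against wild-type replicate 2. The entry named B2 had 16.6%, 16.4% and 16.4% in wild type and 15.4%, 16.1% and 15.9% in the mutant, with no overlap. Shares of B1_Mm and B1_Mus1 stayed within 29.1% to 29.7% and 33.8% to 34.9%. Shares within a kind were not tested.

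Outside the SINEs, the 282 other tested families with a read in every library were ranked by how steady their ratio to the summed B1 or B2 reads was over the 6 libraries. Nearest to B1 were RLTR10, RLTR2aIAP_MM and MTA_Mm_LTR, long terminal repeats of endogenous retroviral elements. RLTR10 had 0.0193 to 0.0208 reads per B1 read, with an SD of the log2 ratio of 0.042, against a median of 0.27 over the 282 families. MTA_Mm_LTR, with 0.29 to 0.33 reads per B1 read, had an SD of 0.063. Nearest to B2 were RLTR13D with an SD of 0.084, RLTR1IAP_MM with 0.097 and IMPB_01 with 0.098, against a median of 0.32.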

How the data were processed

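RNA-seq of 6 testes was analysed from 1 table of raw counts for 363 repeat families, as deposited by the authors, who counted reads per family and listed each family's length. The submitters' processing notes name cutadapt 1.18, Bowtie2 2.4.2 and mm10. The reference sequences, the strand setting and the rule for reads matching several families are not given in the sources used here. An entry that names no family held 0% of counts and was left out. Columns were assigned to genotype and replicate by name, and every column of counts was used.

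Counts of all families were tested with edgeR 4.0.16 in R 4.3.3 (filterByExpr by genotype, TMM, glmQLFit and glmQLFTest, two-sided), with Bonferroni adjustment over the 292 families that passed the filter and a threshold of 0.05. The filter removed 71 families. DESeq2 1.42.0 (Wald test), other scalings, filters and adjustments, a replicate block and leaving out each library were alternatives. The fits were tested on simulated data. Ratios and shares were compared by exact permutation over libraries (scipy 1.17.1), where 3 against 3 cannot give a p under 0.1. Intervals at 95% and standard errors of log2 fold changes were derived from the F statistic. Counting error at a tested member's lowest count was 0.827% (B2_Mm2) to 2.85% (BC1_Mm) and covers counting only, since PCR copies of 1 molecule are counted as separate reads. Bc1 was read from GENCODE M21 (GRCm38).

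The members and lists were chosen with earlier results of these data known. The named-genes rule took all 10 members, L1MdTf_I, L1MdA_I, L1MdGf_I and the LINE1 sum. For summed B1 and summed B2 each, it also took the 3 families with the smallest SD of the log2 count ratio. MMERVK10C was named in addition, after seeing the data. A fixed list of names of further SINEs matched 0 families. Pairs of members and shares within a kind were described with no test.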

Additional observations from a re-analysis of the deposited data

How the results depend on the processing

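Scaling changed the results most. By total counts 6 of the 9 SINEs were called, all lower in the mutant, against 168 of 292 families (57.5%) called lower. Log2 fold changes were then −1.03 for B1 and, with the sign reversed, −0.95 for B1_Mm, −0.96 for B1_Mus1 and −0.92 for B1_Mus2. The sign was also reversed for B2 (−0.88), B2_Mm1a (−0.74), B2_Mm1t (−0.77), B2_Mm2 (−0.88) and BC1_Mm (−0.66). With counts outside LINE1 as library size, an alternative chosen after seeing the data, 0 SINEs were called, the sign was reversed for B1_Mm (−0.24), B1_Mus1 (−0.25), B1_Mus2 (−0.21), B2 (−0.17), B2_Mm1a (−0.036), B2_Mm1t (−0.060) and B2_Mm2 (−0.17), and BC1_Mm was at 0.059. B1 changed sign with TMM factors from families outside LINE1 (0.034), with DESeq2 size factors (0.016) and in DESeq2 (0.017). No other scaling, filter or adjustment that was run called a SINE or changed a sign, while the families called were between 24 and 92 (Benjamini-Hochberg). The cause was not tested.

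Leaving out 1 library at a time, 0 SINEs were called each time. Log2 fold changes were −0.065 to 0.043 for B1, 0.026 to 0.10 for B1_Mm, −0.0018 to 0.095 for B1_Mus1 and 0.047 to 0.14 for B1_Mus2. For the B2 entries they were 0.050 to 0.20 for B2, 0.14 to 0.37 for B2_Mm1a, 0.13 to 0.32 for B2_Mm1t and 0.057 to 0.18 for B2_Mm2. The log2 fold change of BC1_Mm was 0.24 to 0.47. Differences were −0.18 to −0.086 for B1 to B2, 0.14 to 0.31 for BC1_Mm to B1 and B2, −1.59 to −1.33 for SINEs to LINE1, −9.59 to −8.36 percentage points for the share of all counts and −4.20 to −2.98 for the share outside LINE1. Per kilobase this last difference was reversed, at 0.63.

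No pairing by replicate number was seen, with correlations of 0.080, 0.019 and −0.13 between same-numbered libraries. Between differently numbered libraries they were −0.10 to 0.11. With 3 libraries a group, these values cannot decide whether same-numbered samples were paired. With a replicate block 0 SINEs and 14 families were called, and the B1 to B2 difference was −0.14 (p = 0.25 in an exact sign-flip test, the smallest for 3 pairs). No further SINE family was listed by the fixed names, so that count has no value under any setting. Counting error at a tested member's lowest count was 0.827% (B2_Mm2) to 2.85% (BC1_Mm), and the effect of depth was not tested. At most 2 reads of B1F leave its level unmeasured, and 3 mice a group limit every interval.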
